A study of Mus musculus with 2 samples.

Results

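The Hox clusters of the mouse were examined as sites of open chromatin, through 38 Hox genes of 22225 protein-coding genes in the annotation. The genes were chosen by name and by their place in the 4 clusters, HoxA (10 genes), HoxB (10), HoxC (9) and HoxD (9), and the rule used no measured value. The assay was ATAC-seq, which reads out where a transposase can reach the DNA and cut adapters into it. The study compared E14 mouse embryonic stem cells (mESCs) that were WT with Uhrf1 KO E14 mESCs, to see how chromatin opens or closes where Oct4 no longer binds in the absence of Uhrf1. Uhrf1 is the protein that brings the maintenance DNA methyltransferase to newly replicated DNA. Both samples were undifferentiated, were grown with serum and leukemia inhibitory factor on plates coated with gelatin or with mouse embryonic fibroblasts (MEFs), and gave 1 library each from 50000 lysed cells. The Uhrf1 KO cells are a line, and anything the line acquired in its history cannot be told apart from its genotype. With 1 library per genotype there is no replicate error and no test, so every comparison given compares these libraries, not the conditions.

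Hox genes encode homeodomain transcription factors that give cells their position along the head to tail axis and, later, along the limb. In each cluster the genes stand in the order in which they act, from paralog group 1 at the anterior end to paralog group 13 at the posterior end, and they are switched on in that order when cells leave pluripotency. In undifferentiated ESCs they are known to be silent or nearly so, with promoters rich in CpG that Polycomb complexes occupy together with marks of active chromatin.

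The lists hold positions of open regions (peaks) of equal width with a score of 1 throughout, so neither the height of a peak nor the number of reads behind it is known. A gene without a peak is a gene without a listed peak, which does not show that its chromatin was closed. The Uhrf1 gene, which was targeted, had a peak at its TSS in both lists, so the promoter is no check of the genotype label. It held 6 WT peaks and 5 KO peaks with 10 kb on either side. The label ESC was checked through 8 marker genes (Pou5f1, Sox2, Nanog, Esrrb, Zfp42, Tdgf1, Dppa5a and Klf4). All 8 had a peak within 1 kb of a TSS in WT and in Uhrf1 KO, with 70 and 55 peaks summed over the genes and 10 kb on either side. Of all protein-coding genes 61.1% had such a peak in WT and 55.8% in KO. Of 10 genes that mark fibroblasts, which the plates can contribute, 5 had such a peak in WT and 4 in Uhrf1 KO, no larger a share than among all protein-coding genes, with 29 and 24 peaks in sum. Col1a1, Col1a2, Thy1 and Fbn1 had one in both lists, Dcn only in WT, and Col3a1, Twist2, Prrx1, Lum and Postn in neither. Fbn1 had the most peaks of the list, 9 in WT and 7 in KO. The part that fibroblasts have in the Hox peaks was not tested.

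With 10 kb on either side, 62 WT peaks fell in the 4 clusters (47.5 to 79.5, 95% exact Poisson interval), as did 32 Uhrf1 KO peaks (21.9 to 45.2). That is 1.10 peaks per 10 kb in WT and 0.566 in KO, where all chromosomes gave 0.281 and 0.241. Pooled, the clusters were thus denser in peaks than the genome in both lists, with fewer peaks in the KO list. In KO, HoxB held 0.309 peaks per 10 kb, above the genome but below the 0.403 of its own chromosome. The KO to WT ratio of peak number was 0.516 (0.326 to 0.803), and over the whole lists of 71914 WT and 61640 KO peaks it was 0.857 (0.848 to 0.866). All intervals given account for counting error alone, and peaks that lie side by side are not independent observations.

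Every cluster had fewer KO than WT peaks. HoxA held 17 in WT and 11 in KO, a ratio of 0.647 (0.274 to 1.46). HoxB, the longest of them at 174 kb, held 15 and 6, a ratio of 0.400 (0.127 to 1.09). HoxC held 16 and 7, a ratio of 0.438 (0.152 to 1.12), and HoxD 14 and 8, a ratio of 0.571 (0.208 to 1.46). The intervals of the 4 ratios overlap, so the order of the clusters is within counting error, and each of them also includes 1. The chromosomes that carry the clusters had ratios of 0.916 for chromosome 6 (HoxA), 0.852 for chromosome 11 (HoxB), 0.818 for chromosome 15 (HoxC) and 0.848 for chromosome 2 (HoxD).

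The density of peaks also set the clusters apart from most stretches of the genome in WT and less so in KO. Windows along the genome were taken at the length of each cluster with 10 kb on either side. Of those for HoxA, 1.55% held at least as many WT peaks as HoxA and 3.72% at least as many KO peaks. For HoxB these shares were 7.71% in WT and 30.8% in KO. For HoxC they were 2.77% and 15.0%, and for HoxD 3.07% and 8.89%. By KO peaks HoxB was therefore the cluster least unlike an ordinary window, for which the median was 3 peaks in either list.

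Promoters were read from peaks whose middle lay within 1 kb of a TSS of a protein-coding transcript. In WT, 19 of the 38 Hox genes had such a peak (50%, exact binomial interval 33.4 to 66.6), against 61.1% of all protein-coding genes. In Uhrf1 KO, 14 of 38 had one (36.8%, 21.8 to 54.0), against 55.8% of all protein-coding genes. Of the 19 genes with a TSS peak in WT, 6 had none in KO (31.6%, 12.6 to 56.6), against 11.1% of all protein-coding genes with a TSS peak in WT. The background lay below that share but only just outside its interval. Within 500 bp of a TSS, 16 genes had a peak in WT, 4 of them in WT only, and within 2 kb 24 and 9. With lists of equal length by name number these numbers were 18 and 5. No share of all protein-coding genes is given for these settings, so the excess is shown at 1 kb only. Of the 14 genes with a TSS peak in KO, 1 had none in WT, against 2.64% of all protein-coding genes with a TSS peak in KO.

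The 13 genes with a TSS peak in both lists were Hoxa3, Hoxa4, Hoxa5, Hoxa7, Hoxa10, Hoxa13, Hoxb9, Hoxc10, Hoxc13, Hoxd1, Hoxd10, Hoxd11 and Hoxd13. The 6 with one only in WT were Hoxb5, Hoxb8, Hoxc5, Hoxd3, Hoxd8 and Hoxd9, and the 1 with one only in KO was Hoxa6. The remaining 18 had none in either list. HoxA kept a TSS peak at all 6 genes that had one in WT, whereas HoxB had 3 genes with one in WT and 1 in KO, HoxC 3 and 2, and HoxD 7 and 4.

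**Figure D1:**
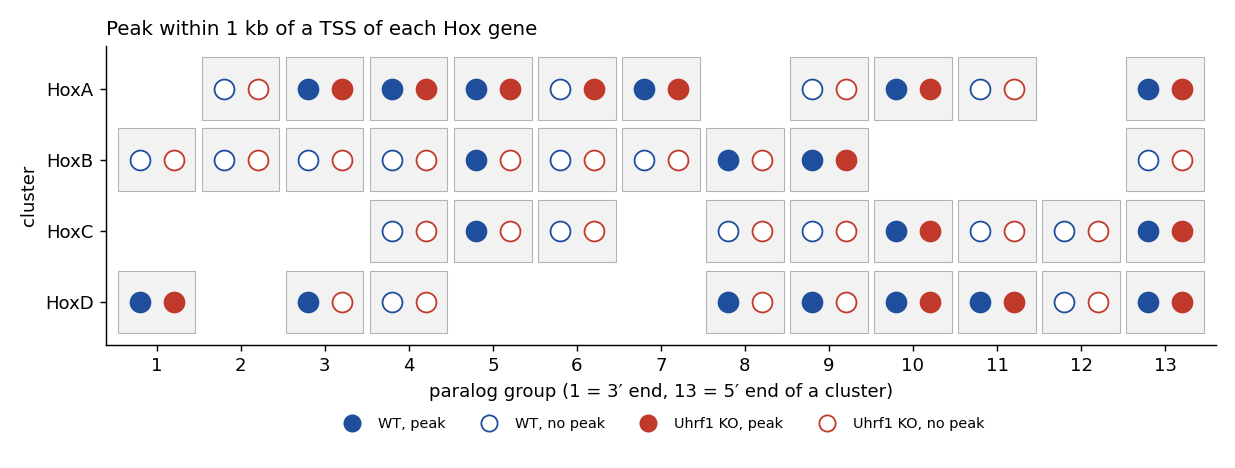
Peak within 1 kb of a TSS for each of the 38 Hox genes, with the paralog group on the horizontal axis and the cluster on the vertical axis. A filled circle is a peak and an open circle none, WT on the left (blue) and Uhrf1 KO on the right (red) of each box, and places without a box hold no gene that was examined. TSS peaks were listed for 19 genes in WT and 14 in Uhrf1 KO, and of the 6 genes with one only in WT 4 belong to paralog groups 5 to 8, besides Hoxd3 and Hoxd9.

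By position along the clusters, the genes of paralog groups 5 to 8, which pattern the neck and the thorax, had the largest difference in TSS peaks. Of 11 such genes 6 had a TSS peak in WT and 3 in KO, and Hoxa6 was among those 3. In the anterior paralog groups 1 to 4 the numbers were 4 and 3 of 11, and in the posterior groups 9 to 13 they were 9 and 8 of 16. All 3 genes of paralog group 10, which act in lumbar patterning, had a TSS peak in both lists, as did 3 of the 4 genes of group 13, the genes of the tail, the digits and the genital tubercle. None of the 3 genes of group 8 had one in KO, where 2 had one in WT. By peak number with 10 kb on either side the order was another, with 39 WT and 18 KO peaks in sum for groups 1 to 4 (a ratio of 0.462), 36 and 19 for groups 5 to 8 (0.528) and 61 and 34 for groups 9 to 13 (0.557). These groups are small, and the difference between them was not tested.

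Counted over each gene with 10 kb on either side, 33 of 38 Hox genes had fewer KO than WT peaks (86.8%), against 43.2% of all protein-coding genes. None had more, against 19.2%. The 5 genes with equal numbers were Hoxa4, Hoxa13, Hoxb1, Hoxc8 and Hoxc9. The genes lie so close together that 1 peak may count for several of them, so these 38 counts are not independent. With 10 kb on either side the median was 3 peaks in WT and 2 in KO, the same as over all protein-coding genes. Within the gene bodies alone, 15 of 38 genes had fewer KO than WT peaks, against 31.3% of all protein-coding genes, and 1 had more, against 13.7%. The number with fewer was thus much nearer to its background than with 10 kb on either side.

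HoxA lies on chromosome 6 from 52112350 to 52210874 on the minus strand. The gene with most peaks was Hoxa3, which acts in the development of the thymus and the parathyroid, with 14 in WT and 9 in KO. Its annotation runs from 52113358 to 52163338 and spans Hoxa4, Hoxa5 and Hoxa6, so its window also takes in the peaks of those genes. Hoxa2, which patterns the second branchial arch and is the lowest paralog group examined in the cluster, had 6 WT and 3 KO peaks and no TSS peak in either list. The nearest WT peak stood 3414 bp from its TSS and the nearest KO peak 6598 bp. Hoxa7 had 5 and 4. Hoxa13, at the posterior end, had 1 peak in each list, at chr6:52210857-52210957 in WT and 7 bp further on in KO, next to its TSS.

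Most promoter peaks of HoxA stood at nearly the same base in both libraries. The peak at the TSS of Hoxa5 was listed at chr6:52154510-52154610 in both, and that at the TSS of Hoxa7 at 52171801 in WT and 52171802 in KO. The shared peak nearest to a Hoxa3 TSS started at 52122611 in WT and at 52122617 in KO, in the UTR. Hoxa6 differed. Its KO peak, chr6:52158781-52158881, lay 110 bp upstream of the TSS of its protein-coding transcript, in an intron of the longer Hoxa3 and Hoxa6 transcripts, and the nearest WT peak was 2841 bp away. That TSS is inside the annotated gene, and when only the outer end of each gene was taken as its TSS, no gene had a TSS peak in KO alone.

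Peaks of both lists were taken as partners when the gap between them was no more than 100 bp. In HoxA 7 of 17 WT peaks and 2 of 11 KO peaks had no partner. Of the WT peaks without a partner, chr6:52118776-52118876 lay in the UTR of Hoxa3, and 52126007 and 52126068 start an overlapping pair in its intron. Another pair in the Hoxa3 annotation, at 52161622 and 52161741, fell between Hoxa6 and Hoxa7. The peak chr6:52184301-52184401 was in a coding exon of Hoxa10, a gene of uterine and lumbar patterning, and 1 more was in the flank beyond Hoxa2. The second KO peak without a partner, chr6:52125369-52125469, stood in the same intron of Hoxa3 as the first WT pair, 638 bp from its nearer peak.

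HoxB lies on chromosome 11 from 96055630 to 96229570 on the plus strand, with Hoxb13 at its low end and Hoxb1 at its high end. At its anterior end the KO list held no peak. Hoxb1, which specifies a segment of the hindbrain, had no peak in either list. Hoxb2 had 2 WT and 0 KO peaks, and Hoxb3 4 and 0. None of the 4 lay in the body of Hoxb3, and they are the WT peaks within Hoxb2 and Hoxb4. The WT peaks at Hoxb2 were chr11:96214589-96214689 in a coding exon and chr11:96215748-96215848 in the UTR, and the KO peak nearest to the first was 41582 bp away. Hoxb4, a gene used to expand blood stem cells, had 3 and 1, and both WT peaks within the gene, at 96179857 and 96180168, lacked a KO partner.

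Further along HoxB, the TSS peaks listed only in WT were those of Hoxb5 and Hoxb8. The Hoxb5 peak, chr11:96164482-96164582, lay in the UTR 623 bp downstream of the TSS, and the nearest KO peak stood 9148 bp from that TSS. The Hoxb8 peak, chr11:96144383-96144483, lay in a coding exon 394 bp downstream of a TSS, and the nearest KO peak stood 2774 bp from one. Each gene had 2 WT peaks and 1 KO peak with 10 kb on either side. Hoxb6 had 3 and 1, none of them within the gene, and its WT peaks were those within Hoxb8, Hoxb7 and Hoxb5. Hoxb9 had the most peaks of the cluster, 5 in WT and 2 in KO.

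Hoxb9 counted as having a TSS peak in both lists, but not in the same place. Its KO peak, chr11:96132442-96132542, lay 279 bp upstream of the first of its 2 TSSs. The WT peaks, starting at 96133045 and 96133135, lay in a coding exon, 258 and 348 bp downstream of the other TSS. The KO peak was 603 bp from the nearer WT peak, so none of them had a partner. Hoxb13, the posterior gene of the cluster, had 3 WT and 2 KO peaks and no TSS peak, and the pair upstream of it, at 96051570 and 96051721 in WT, was shared. The third WT peak, chr11:96064193-96064293, was the only Hox peak whose central 31 bp occurred more than once in the genome, with 61 exact copies, so reads there cannot be placed with certainty. The remaining WT peak without a partner, chr11:96122944-96123044, lay in a coding exon of Gm53. In all, 10 of 15 WT peaks of HoxB and 1 of 6 KO peaks had no partner.

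HoxC lies on chromosome 15 from 102751534 to 102867274 on the plus strand. Its peaks were most numerous at Hoxc13, a gene needed for hair and nails, with 7 WT and 3 KO peaks. Those upstream of the TSS were shared, the closest being chr15:102751299-102751399 in WT, 185 bp upstream. The 3 WT peaks within the gene, at 102751945 and 102752000 in a coding exon and at 102752314 in an intron, had no KO partner. At Hoxc10 the WT pair at 102796960 and 102797029 returned in KO with centres 11 and 4 bp away. Hoxc10 had 3 WT and 2 KO peaks, and the same peaks made up the numbers of Hoxc11.

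The anterior end of HoxC, beyond Hoxc6, was likewise without KO peaks. Hoxc4 had 2 WT and 0 KO peaks, and Hoxc5 3 and 0. The WT peaks of Hoxc4 lay outside that gene, within Hoxc6 and Hoxc5, and are also counted for Hoxc5. The Hoxc5 TSS peak, chr15:102844771-102844871, lay in a coding exon 575 bp downstream of the TSS, and the nearest KO peak stood 14373 bp from that TSS. Hoxc6, which acts in forelimb motor neurons, had 5 WT and 2 KO peaks, of which those near chr15:102829701-102829801 in an intron were shared. Those at 102835951 (intron) and 102841769 (UTR) were not. With 102773852 and 102794217, both intergenic, 8 of 16 WT peaks had no partner, whereas all 7 KO peaks had one.

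HoxD lies on chromosome 2 from 74506367 to 74603200 on the plus strand. Its peaks crowded at the posterior genes, which shape the digits and the forearm. Hoxd12 had 7 WT and 4 KO peaks, although the nearest was 1807 bp from its TSS in WT and 6657 bp in KO. Hoxd10 and Hoxd11 had 6 and 3 each, most of them the same peaks. Hoxd13 had 4 and 2, and both KO peaks lay upstream of its TSS, where the WT peaks extended to chr2:74506342-74506442, whose middle is 25 bp downstream. The shared peaks closest to the TSSs of Hoxd10 and Hoxd11 started at 74529761 (UTR) and 74519999 (intron) in WT.

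In the middle of HoxD, 3 neighbours had a TSS peak only in WT. The Hoxd9 peak, chr2:74535676-74535776, had its middle 11 bp upstream of the TSS, and the nearest KO peak stood 5927 bp from it. The Hoxd8 peak, chr2:74542817-74542917, lay 95 bp upstream of a TSS in an intron of a longer transcript, and the nearest KO peak stood 10849 bp from one. The Hoxd3 peak, chr2:74550165-74550265, lay in the UTR 229 bp downstream of a TSS, against 4072 bp for the nearest KO peak. These genes had 3, 4 and 3 WT peaks and 1, 1 and 2 KO peaks, in windows that overlap. The stretch of HoxD from Hoxd9 to the first TSS of Hoxd3 therefore held TSS peaks in WT and none in KO.

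At the anterior end of HoxD, Hoxd1 kept its promoter peak, which started at 74600972 in WT and 74600967 in KO. A second WT peak, chr2:74601468-74601568 in its coding exon, had no partner, nor had chr2:74511129-74511229 upstream of Hoxd12. Of the 8 KO peaks 2 had no partner. They were chr2:74521559-74521659 in an intron of Hoxd11, 1560 bp from the nearest WT peak, and chr2:74588016-74588116 in an exon of the non-coding gene 6720416L17Rik between Hoxd3 and Hoxd1, 12956 bp from the nearest. This last peak divided what was the longest stretch without a peak in WT, 47.0 kb, so that the longest in KO was 34.0 kb. In the other clusters the longest stretch was as long or longer in KO, at 20.3 kb in both lists for HoxA, 48.2 kb in WT and 56.8 kb in KO for HoxB, and 32.7 and 37.4 kb for HoxC.

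**Figure D2:**
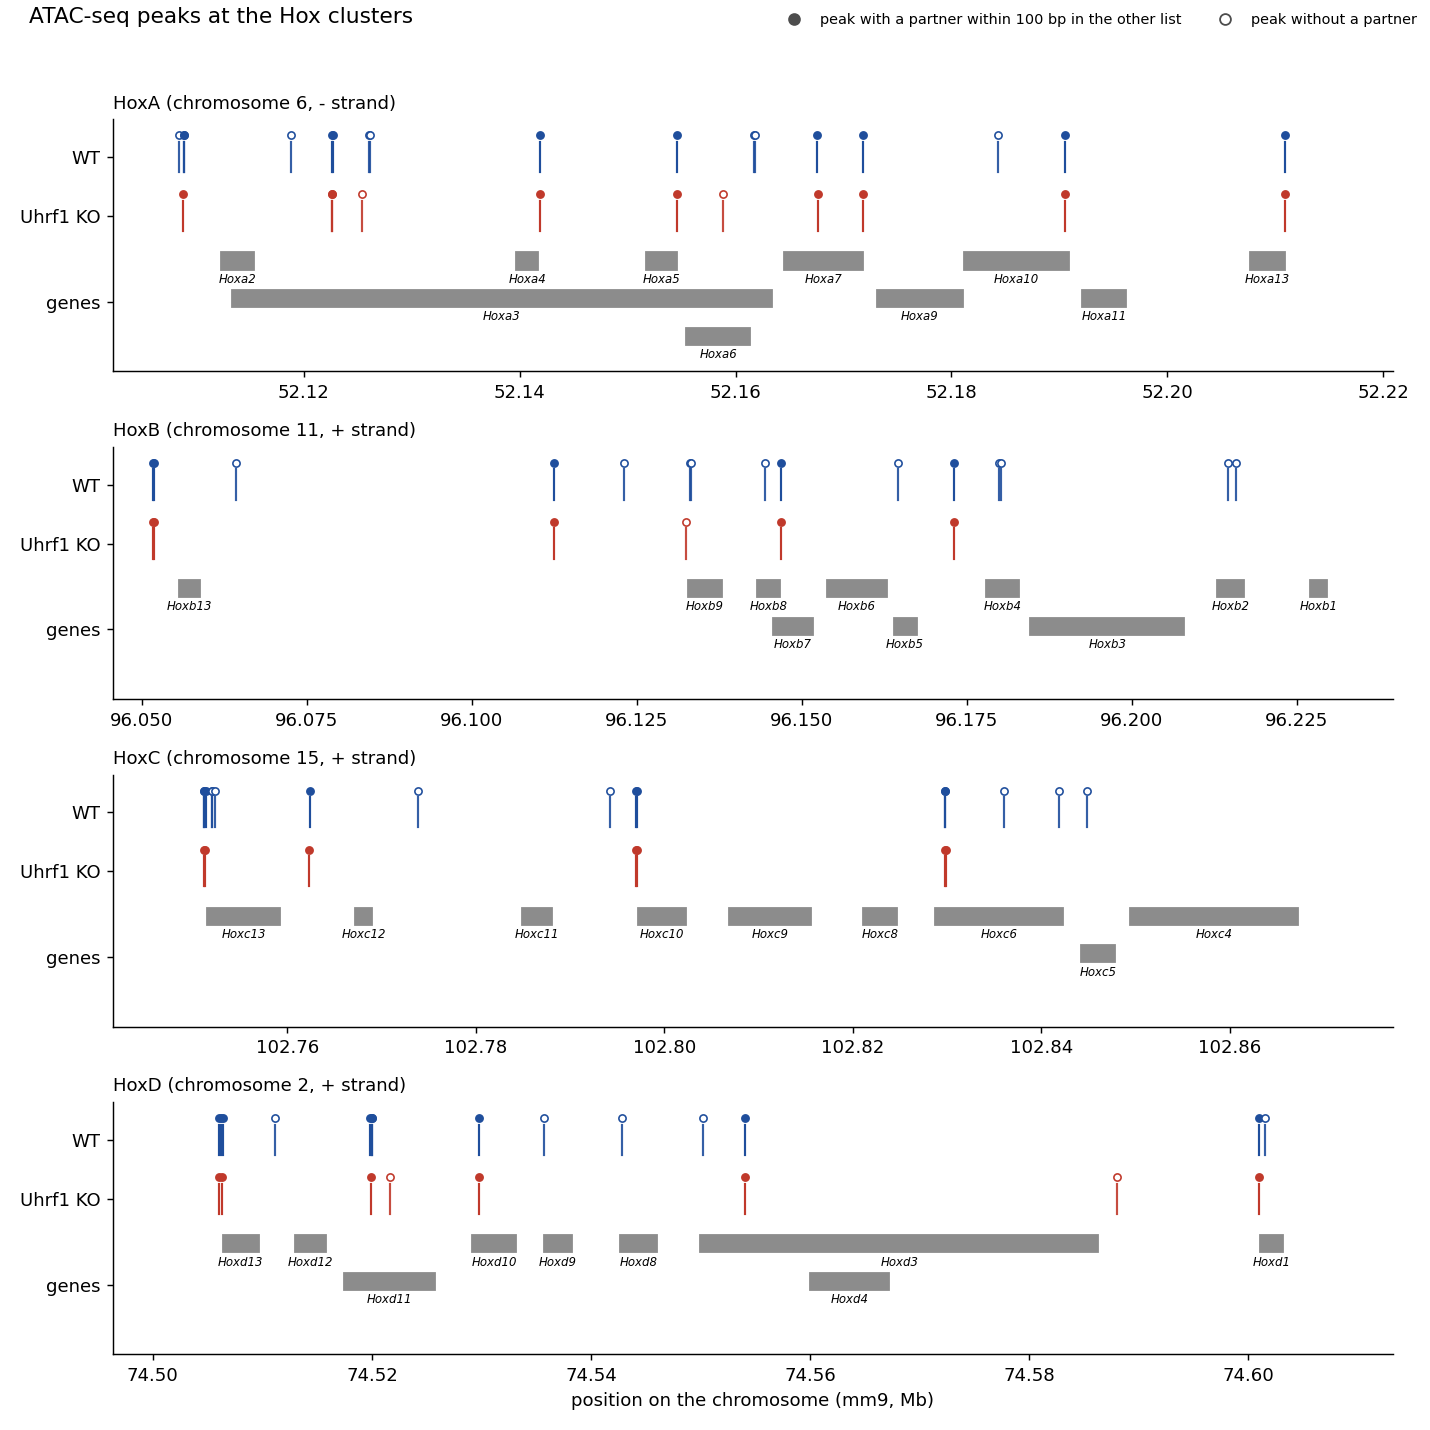
Peaks of both lists over the 4 clusters with 10 kb on either side, drawn to scale along the chromosome in Mb of mm9, with WT in blue, Uhrf1 KO in red and the annotated genes in grey. Filled heads mark peaks with a partner within 100 bp in the other list and open heads those without one, which are 30 of 62 WT peaks and 5 of 32 KO peaks.

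Over the 4 clusters, 30 of 62 WT peaks had no KO partner (48.4%, 35.5 to 61.4), against 32.1% of all WT peaks. In the other direction 5 of 32 KO peaks had no WT partner (15.6%, 5.28 to 32.8), against 24.6% of all KO peaks. The WT share lay above its background, and the KO share did not differ from its background beyond counting error. Within 1 kb of a TSS 14 of 38 WT peaks had no partner (36.8%, 21.8 to 54.0), against 7814 of 32495 of all such WT peaks, which is within counting error. Farther from a TSS 16 of 24 had none (66.7%, 44.7 to 84.4), against 38.6% of all such WT peaks, which lies outside the interval. When at least 50% of both peaks had to be shared, 39 of 62 had none (62.9%, 49.7 to 74.8). The 50.2% of all WT peaks lies within that interval, so by this setting the WT share did not differ beyond counting error. The 27 KO peaks with a partner had their centre at a median of 11 bp, and at most 74 bp, from that of the WT peak. By position, most KO peaks at the Hox clusters were therefore also WT peaks.

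By place, 13 WT peaks and 1 KO peak of the clusters lay in coding exons, a ratio of 0.0769 (0.00181 to 0.512). Over the whole lists coding exons also had the lowest ratio, 0.516, from 4611 WT and 2381 KO peaks. UTRs held 14 and 7 Hox peaks, introns 17 and 10, non-coding exons 2 and 2, and intergenic sequence 16 and 12. The ratios of these places in the clusters had intervals that include those of the whole lists, which were 0.741, 0.835, 0.770 and 0.954. Within 1 kb of a TSS of any protein-coding gene the clusters held 38 WT and 21 KO peaks, a ratio of 0.553 (0.308 to 0.966), and farther away 24 and 11, a ratio of 0.458 (0.203 to 0.972). Over the whole lists these ratios were 0.761 and 0.936, each within the interval of the clusters.

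Peak names carry a number, and peaks with a low number were shared more often. What the number stands for is not given in the sources used here. Among Hox peaks numbered below the middle of their chromosome's range, 4 of 23 WT peaks had no partner (17.4%, 4.95 to 38.8), against 11.7% of all such WT peaks. Above the middle 26 of 39 had none (66.7%, 49.8 to 80.9), against 53.8%. On either side of the middle the share of WT Hox peaks without a partner did not differ from its background beyond counting error. The Hox peaks stood somewhat late in the numbering, with a median at 58.0% of the chromosome's range in WT and 66.2% in KO, where all peaks had medians of 48.4% and 48.8%.

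The sequence of the Hox peaks was rich in G, C and CpG. Over the central 200 bp the median GC content was 65.8% in WT and 64% in KO, against 59.5% and 56.5% over all peaks. The median number of CpG was 15.5 and 13.5, against 9 and 6. The WT peaks without a KO partner had a median GC content of 68% and 19 CpG, while all WT peaks without a partner had 58% and 7. The 5 KO peaks without a partner had medians of 64% and 13 CpG, against 49.5% and 2 over all such KO peaks. No Hox peak of either list had a GC content below 50%, a class in which the whole KO list held more peaks than the whole WT list (15903 and 11770).

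Peaks rich in GC were fewer in the KO list throughout the genome. At a GC content of 60% or more the whole lists held 35555 WT and 24707 KO peaks, a ratio of 0.695 (0.684 to 0.706), and the Hox clusters 52 and 23, a ratio of 0.442 (0.258 to 0.736). With the further condition of a TSS within 1 kb, the ratio was 0.724 over the whole lists, and the clusters held 32 WT and 16 KO peaks, with an interval of the ratio from 0.256 to 0.938. The intervals of the clusters included the values of the whole lists in each of these classes. The part of base composition in the lower number of KO peaks was not tested. Genes with a TSS peak in both lists had a median of 74 CpG within 500 bp of the outer end of the gene at its start, those with one only in WT 49.5 and those with none 34.5. The median over all protein-coding genes was 41.

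The sequences of peaks without a partner at promoters are given for the genes with a TSS peak in 1 list only and for Hoxb9, where the lists had different peaks. They are in lower case with CpG in capitals, 5′ to 3′ on the strand of the gene, at mm9 positions. The peaks at Hoxb5, Hoxd3 and Hoxd9 overlap UTRs and are not shown. The other WT peak at Hoxb9, starting at 96133135, is not shown either.
Hoxa6, KO, chr6:52158781-52158881, intron, minus strand: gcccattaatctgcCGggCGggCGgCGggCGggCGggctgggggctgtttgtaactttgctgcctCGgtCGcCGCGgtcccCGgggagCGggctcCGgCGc
Hoxb9, KO, chr11:96132442-96132542, upstream, plus strand: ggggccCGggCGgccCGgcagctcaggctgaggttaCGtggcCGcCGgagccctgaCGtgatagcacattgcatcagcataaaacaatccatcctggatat
Hoxb9, WT, chr11:96133045-96133145, coding exon, plus strand: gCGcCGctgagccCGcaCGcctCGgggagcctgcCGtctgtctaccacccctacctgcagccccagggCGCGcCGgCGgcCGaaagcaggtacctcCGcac
Hoxb8, WT, chr11:96144383-96144483, coding exon, plus strand: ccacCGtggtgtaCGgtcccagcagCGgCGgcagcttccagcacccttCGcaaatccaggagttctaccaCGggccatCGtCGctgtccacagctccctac
Hoxc5, WT, chr15:102844771-102844871, coding exon, plus strand: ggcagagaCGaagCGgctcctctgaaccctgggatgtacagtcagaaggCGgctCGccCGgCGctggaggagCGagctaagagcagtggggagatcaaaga
Hoxd8, WT, chr2:74542817-74542917, intron, plus strand: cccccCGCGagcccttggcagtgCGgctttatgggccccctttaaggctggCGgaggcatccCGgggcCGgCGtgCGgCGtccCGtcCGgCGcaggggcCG
At Hoxb9 the KO peak held 7 CpG and the WT peak shown 12, with GC contents of 61.4% and 75.2%. The peaks of Hoxa6 and Hoxd8 held 14 and 13 CpG, and those of Hoxb8 and Hoxc5 8 and 7.

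The shared WT peak with most CpG of each cluster is given in the same way, counted within the listed peak and not its central 200 bp, among shared peaks within 5 kb of a TSS that overlap neither a UTR nor a TSS.
Hoxa4, chr6:52141878-52141978, intron of Hoxa3, minus strand: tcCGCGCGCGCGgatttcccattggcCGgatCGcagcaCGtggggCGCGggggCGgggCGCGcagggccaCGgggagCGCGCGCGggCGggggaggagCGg
Hoxb13, chr11:96051570-96051670, upstream, plus strand: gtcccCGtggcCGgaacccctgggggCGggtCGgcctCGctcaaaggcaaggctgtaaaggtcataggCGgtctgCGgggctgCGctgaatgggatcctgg
Hoxc6, chr15:102829701-102829801, intron, plus strand: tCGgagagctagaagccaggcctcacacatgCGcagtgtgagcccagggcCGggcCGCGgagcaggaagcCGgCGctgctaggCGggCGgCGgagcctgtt
Hoxd13, chr2:74506207-74506307, upstream, plus strand: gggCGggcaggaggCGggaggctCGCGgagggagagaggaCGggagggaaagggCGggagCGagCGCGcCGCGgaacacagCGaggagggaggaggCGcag
They held 20, 8, 10 and 13 CpG, and since they were chosen by this number it says nothing of shared peaks in general.

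Motifs of factors that act on Hox clusters were looked for in the central 200 bp on both strands. The Oct4 octamer ATGCAAAT was in 0 of 62 WT and 0 of 32 KO peaks, against 1.58% and 1.95% of all peaks. The site TGATNNAT, which Hox proteins bind together with Pbx, was in 2 WT peaks (3.23%) and 0 KO peaks, against 3.54% and 4.72%. Retinoic acid response elements were searched as GNTCANNNGNTCA and GNTCANNNNNNGNTCA, and neither was in any Hox peak, against at most 0.576% of all peaks. The core CCANNAGNNGGC of CTCF, the factor that separates chromatin domains within Hox clusters, was in 4 WT (6.45%) and 3 KO peaks (9.38%), against 6.86% and 5.56%. With so few peaks none of these shares differed from that of all peaks beyond counting error. A match is only a match of letters, and a missing match says nothing of the factor.

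The TALE proteins, which bind DNA with Hox proteins, are encoded by 9 genes that were counted as a list. Of these, 8 had a TSS peak in WT and the same number in KO, Pbx2 being without one in either list, against 61.1% and 55.8% of all protein-coding genes. Meis1, which sets the specificity of posterior Hox proteins in blood cells, had 22 WT and 17 KO peaks with 10 kb on either side. In sum the list held 97 WT and 80 KO peaks, and 7 of the 9 genes had fewer in KO, against 43.2% of all protein-coding genes. Meis2 had more peaks in KO than in WT, with 14 and 19, as had Meis3 with 1 and 6, and 19.2% of all protein-coding genes had more. Over all protein-coding genes with a TSS peak in WT 11.1% had none in KO, so a number of 0 among 8 genes is near the background.

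The regulators upstream of the clusters were counted as Cdx1, Cdx2, Cdx4, Rara, Rarb and Rarg. Of these 6, 5 had a TSS peak in WT and 3 in KO, where all protein-coding genes had 61.1% and 55.8%. The 3 were the retinoic acid receptors Rara, Rarb and Rarg. The caudal genes Cdx1 and Cdx2, which activate middle and posterior Hox genes in the embryo, had one in WT alone. Among all protein-coding genes with a TSS peak in WT 11.1% had none in KO, and the difference was not tested. With 10 kb on either side the list held 51 WT and 23 KO peaks in sum. Summed over all protein-coding genes, the KO to WT ratio was 0.802. Cdx1 had 6 WT and 0 KO peaks, and Cdx2 had 8 and 4. Cdx4 had none in either list. Among the receptors Rara had 16 WT and 7 KO peaks, Rarg 14 and 5, and Rarb 7 in each list.

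Genes at the ends and in the intervals of the clusters were counted in the same way. The windows of Evx2 and of the microRNA genes take in Hox peaks already described, so their numbers are not separate from these, whereas those of Evx1 and of the flanking genes lie outside the clusters. The even-skipped homologues Evx1 and Evx2 had no TSS peak in either list, with 2 WT and 1 KO peaks at Evx1 and 7 and 4 at Evx2. Of 10 non-coding genes listed for the clusters 6 were matched by name, all of them microRNA genes. Mir615, which lies within Hoxc5, had a TSS peak in WT alone, and the other 5 had none. Mir10a had 3 WT and 1 KO peaks, Mir196a-1 3 and 1, and Mir196b 2 and 1. Of 8 genes that flank the clusters 6 had a TSS peak in WT and 5 in KO, with 40 and 33 peaks in sum. As 11.1% of all protein-coding genes with a TSS peak in WT had none in KO, 1 of 6 is near the background. It was Skap1 beyond HoxB, with a TSS peak 6 bp from the TSS in WT and the nearest KO peak at 25655 bp. Lnp beyond HoxD had more peaks in KO, with 2 in WT and 4 in KO.

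Other homeobox genes were set beside the Hox genes, from a list by name pattern that was made after the data had been seen. The pattern takes in all Pax genes without a check for a homeobox, and the Cdx and Evx genes counted above. The window of Evx2 holds Hox peaks, so the list is not fully separate from the clusters. Of the 128 genes on this list, 99 (77.3%) had a TSS peak in WT and 83 (64.8%) in KO. Of those with one in WT, 18.2% had none in KO, against 31.6% of Hox genes, and the interval of the Hox share includes the value of the other homeobox genes. Fewer KO than WT peaks were listed at 71.1% of them and more at 7.81%. Summed over the genes, the KO to WT ratio of peak number was 0.551 for the other homeobox genes, 0.522 for the Hox genes and 0.802 for all protein-coding genes. The lower number of KO peaks was therefore not limited to the Hox clusters.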

How the data were processed

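The deposited values are positions of ATAC-seq peaks for 1 WT and 1 Uhrf1 KO library on mm9, with a deposited score of 1 throughout. The authors mapped reads with Bowtie2 2.1.0, reporting 1 alignment per read, and used fragments under 150 bp. HOMER 4.9.1 is named in the submitters' processing notes without a role, and the peak caller and threshold are not given in the sources used here. Depth per peak is unknown.

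Genes and TSSs came from GENCODE release M1. A peak was counted by its middle, and a gap of at most 100 bp made a partner. Copies of the central 31 bp were counted on both strands. Intervals are 95% exact Poisson or Clopper-Pearson, and those of ratios come from the exact binomial. The overlap routine was tested on simulated data. Python 3.11.15, numpy 2.4.6, scipy 1.17.1, pysam 0.24.0, numba 0.67.0, samtools 1.23.1 and matplotlib 3.10.9 were used.

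The text names genes with a TSS peak in 1 list only, per cluster the 3 genes with most peaks and those with none, the ends of each cluster, and peaks without a partner. Genes outside this rule, such as Hoxa5 and the list of other homeobox genes, were named after their values were seen. Sequences were planned for the 15 peaks without a partner within 1 kb of a Hox TSS, and fewer are given. The lists of cofactors, regulators, Evx, non-coding and flanking genes are counted whole. The rule for the Hox genes uses names only, but the members and lists were chosen with earlier results of these data known. 1 further Hox gene is not reported here.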

Additional observations from a re-analysis of the deposited data

How the results depend on the processing

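Of 83 alternative values 9 moved and 0 reversed, where a count moved if it changed by over 1.5 times, a share or the ratio if it left its interval, and a median if it changed by more than the SD over peaks. No paired analysis was possible because there is 1 library of WT and 1 of Uhrf1 KO. The KO to WT ratio over the clusters ranged from 0.467 without HoxA, an alternative chosen after seeing the data, to 0.604 with lists of equal length by name number, and was 0.562 with neighbouring peaks merged, where the whole lists gave 0.909. HoxB held 10 KO peaks with 50 kb on either side, and HoxC 4 KO peaks with neighbours merged. When at least 50% of both peaks had to be shared, 62.9% of WT and 34.4% of KO Hox peaks had no partner, against 50.2% and 42.4% of the whole lists. With the 5′ end of the gene as its only TSS, the number of genes with a TSS peak in KO alone was 0. Within gene bodies only, 15 of 38 genes had fewer and 1 had more KO than WT peaks, against 31.3% and 13.7% of all protein-coding genes. With 5 kb on either side 1 had more. The median number of CpG over the listed peak alone, a shorter window, was 8 in WT and 7 in KO. The cause of the other shifts was not tested. Without read numbers per peak, a peak just under the threshold cannot be told from a closed site, and differences of a few peaks per gene are not detectable beyond counting error.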
